A study of Mus musculus with 6 samples.

Results

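The vascular endothelial growth factors (VEGF) and platelet-derived growth factors (PDGF), with the PDGF receptors, were followed across GFP-expressing and SIRT7-overexpressing mouse fibroblasts. The members were the 10 genes Vegfa, Vegfb, Vegfc, Figf (listed as Vegfd by RefSeq), Pgf, Pdgfa, Pdgfb, Pdgfc, Pdgfra and Pdgfrb. All non-control probes that carry 1 of these gene names were taken, which gave 18 of the 61307 probes, and 10 of the 50090 gene names, on the array. Vegfa had 4 probes, while Vegfb, Pdgfa, Pdgfb, Pdgfc and Pdgfra had 2 each and the other 4 genes had 1 each.

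The cells were NIH3T3, an immortalized mouse fibroblast line, grown in DMEM with fetal bovine serum. The control line carried GFP alone from the retroviral vector pCX4Neo, and the other lines carried a SIRT7GFP fusion from the same vector. SIRT7 is a nucleolar NAD+-dependent deacetylase. All lines had gone through Geneticin selection and cloning. The LT7 line (long cells) came from slender cells that surrounded compact colonies in a confluent SIRT7GFP culture, and the ST7 line (small cells) from inside such colonies, each picked with a cloning cylinder and carried on as single cell clones. Each group had 2 arrays, which per the methods were different passages of the line, so p-values measure the spread between passages and not between independently made clones.

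VEGF and PDGF proteins are related cystine-knot dimers that signal through receptor tyrosine kinases. VEGF-A drives the growth of blood vessels and its transcription rises with low oxygen. VEGF-C and VEGF-D (the product of Figf) act mainly on lymphatic vessels, and VEGF-B and PlGF (the product of Pgf) bind the receptor Flt1. PDGF chains are mitogens for mesenchymal cells, and the receptors Pdgfra and Pdgfrb are characteristic of fibroblasts and mural cells.

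The arrays labelled ST7 stood apart, also in their Sirt7 signal, which bears on every ST7 value here. The share of probes flagged well above background was 26.4% and 25.6% on them, against 47.4% to 57.5% on the other 4 arrays, and their 75th percentile signals were 16.3 and 17.1, against 317 to 384 elsewhere. The brighter of the 2 Sirt7 probes read 3125 and 2480 in GFP, 3633 and 2782 in LT7, but 2.85 and 3.28 in ST7. This probe was not well above background on the ST7 arrays. In LT7 it was not called higher than in GFP (log2 change 0.29, SE 0.21, adjusted p = 0.471, limma). Whether the Sirt7 probes detect the introduced transcript was not examined, so they check the labels only as far as they do. Whether the RNA on the ST7 arrays was intact and came from the small-cell line was not tested, so ST7 values describe these 2 arrays. LT7 and ST7 mean below the arrays so labelled. Markers of the other cell types that such a culture could hold are given beside the receptors.

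The probes are 60-base oligonucleotides. The sequences shown here belong to probes on which the results turn: the Vegfc probe, 2 Vegfa probes and the 2 Pdgfra probes that did not move together, the Pgf probe, whose signal was retained in ST7, and the Vegfb and Pdgfa pairs, of which 1 probe each was retained in ST7. The first 30 bases are given from the 5′ end, and for the second Pdgfra probe all 60.
Vegfa probe 1: cagatcggtgacagtcactagcttgtcctg
Vegfa probe 2: actggattcgccattttcttatatctgctg
Vegfb probe 1: atgataactgtgacacacacacacactcac
Vegfb probe 2: tgcttttatggccctgcttcacagggagaa
Vegfc probe 1: tctgtgtttattgaaccatgtggattactg
Pgf probe 1: tagaaactcacagactgaggaaccccaccc
Pdgfa probe 1: ccaatgtgcgtgcggtctttgttctcctcc
Pdgfa probe 2: attgaaagaggtccaggtgaggttagagga
Pdgfra probe 1: tgtatatatctgttgctatgtagacttgga
Pdgfra probe 2: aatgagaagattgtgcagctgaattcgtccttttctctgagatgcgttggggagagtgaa

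Both arrays detected 15 of the 18 probes well above background in GFP cells, 14 in LT7 and 5 in ST7. The values below are processed signals in arbitrary fluorescence units, 1 per array, and levels are compared only within a probe. Changes are log2 differences after each array was shifted to its own 75th percentile, tested with limma over all probes with Benjamini-Hochberg adjustment (n = 2 per group). A probe not well above background in a group has only a bound there. "At least" then sets the mean of the brighter group against the lowest signal that counted as detected on the dim arrays.

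**Figure D1:**
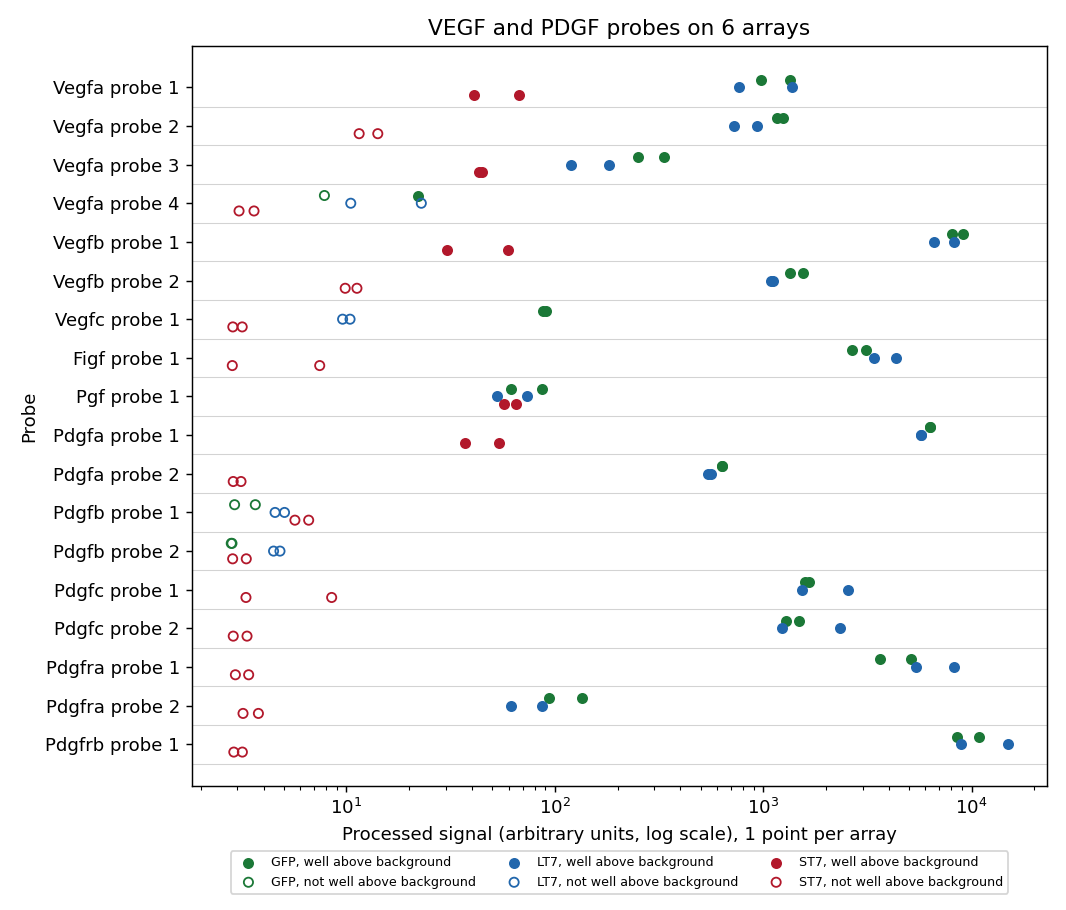
Processed signal (horizontal axis, log scale, arbitrary units) of each of the 18 probes (vertical axis) on the 6 arrays, 1 point per array, filled where the probe was well above background. GFP and LT7 points lie close together for most probes, the Vegfc probe is filled in GFP alone, and 13 of the 18 probes are open on both ST7 arrays.

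The comparison of LT7 with GFP asks which of these genes differ in SIRT7GFP cells that kept the fibroblast shape. Vegfc fell in LT7, and no other member passed the test. By limma 1 of the 18 probes was lower and 0 were higher, where 0.132% and 0.044% of all probes were called in these directions and 0.176% in either. At an unadjusted p under 0.05 there were 5 of 18 member probes, against 27.2% of all probes. Both Pdgfb probes, not well above background on any array, were among them. When limma was fitted only to probes well above background on both arrays of any group, the share of all those probes was 10.3%. The 5 of 18 comes from the fit to all probes, so only the 27.2% can be set beside it. The methods give a fold rule with limits of 0.8 on each array and 1 on the mean without naming a scale, and it was read here as log2 ratios. It took 1 of 18, the Vegfc probe, where it took 5.91% of all probes, 3.02% as lower and 2.89% as higher. Of the 15 member probes detected on both GFP arrays, 1 was detected on neither LT7 array, against 8.24% of all such probes. The median log2 change was -0.06 over the member probes and 0.17 over all probes. Over probes well above background on both arrays of any group it was -0.02.

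The Vegfc probe (NM_009506) read 90.2 and 87.8 in GFP, against 10.4 and 9.58 in LT7, with 2.85 and 3.16 for ST7. The groups did not overlap, and only the GFP arrays were well above background. The mean was 89.0 ± 1.73 (SD, n = 2) in GFP and 9.99 ± 0.581 in LT7. The log2 change in LT7 was -3.06 (SE 0.20, adjusted p = 0.0249, limma), at least 3.94-fold lower. Vegfc, alone of the members, is in a list of LT7-changed genes that the study chose on these same arrays, so that listing is not independent evidence. The call was lost when 1 GFP array was left out, where the adjusted p was 0.270 (GFP replicate 1 left out) or 0.126 (GFP replicate 2 left out). It was also lost with either ST7 array left out (change -3.06), since these share the estimate of the spread. The call was lost too with quantile normalization (adjusted p = 0.181), with scaling on spike-in RNAs (adjusted p = 0.501) and with the replicate block (adjusted p = 0.104). Few probes of the whole array were then called in LT7. These were 2 higher and 3 lower with quantile normalization, 0 and 3 with spike-ins, and 0 and 0 with the replicate block. Without LT7 replicate 1, the 1 array of the second scan, the change was -3.06 (adjusted p = 0.0395). In cultures of this kind fewer expressing cells and less RNA per cell cannot be told apart.

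Vegfa was measured by 4 probes that did not give 1 answer in LT7. Probe 1 (NM_009505) read 1349 and 980 in GFP and 1370 and 768 in LT7, so the groups overlapped, and changed by -0.07 (SE 0.39, adjusted p = 0.947, limma). Probe 2 read 1243 and 1163 in GFP and 931 and 726 in LT7, lower without overlap, with a change of -0.45 (SE 0.24, adjusted p = 0.314). Probe 3 read 334 and 250 in GFP and 119 and 181 in LT7. Both LT7 arrays lay below both GFP arrays, and the change was -0.88 (SE 0.29, adjusted p = 0.126), 1.84-fold. None of the 3 passed the test. Probe 4, designed on the transcript NM_001025250, read 22.0 and 7.84 in GFP and 22.9 and 10.5 in LT7 and was well above background on a single GFP array.

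The other VEGF ligands differed less between LT7 and GFP than their replicates allowed to call. Vegfb (NM_011697) read 9065 and 8054 in GFP and 8235 and 6598 in LT7 on probe 1, with overlap. On probe 2 it read 1557 and 1340 in GFP against 1094 and 1110 in LT7, without overlap, and the changes were -0.11 (adjusted p = 0.90, limma) and -0.29 (adjusted p = 0.457). Figf (NM_010216) was the ligand with the largest positive log2 change in LT7 among those well above background. It read 3125 and 2674 in GFP and 4346 and 3383 in LT7, without overlap, a change of 0.51 (SE 0.46, adjusted p = 0.573). Pgf (NM_008827) read 86.6 and 61.9 in GFP and 52.8 and 73.2 in LT7, with overlap and a change of -0.14 (adjusted p = 0.827).

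Of the PDGF ligands, Pdgfa, a mitogen that acts through Pdgfra, gave nearly the same signal on both arrays of a group. Its probe 1 (NM_008808) read 6337 and 6342 in GFP and 5719 and 5706 in LT7, and its probe 2 631 and 634 in GFP and 546 and 563 in LT7. The signals did not overlap on either probe, but after the percentile shift they did, with changes of -0.05 (SE 0.28, adjusted p = 0.942, limma) and -0.09 (SE 0.21, adjusted p = 0.843). Pdgfc (NM_019971), a ligand secreted in latent form and freed by proteolysis, read 1593 and 1652 in GFP and 2560 and 1526 in LT7 on probe 1. On probe 2 it read 1282 and 1489 in GFP and 2340 and 1232 in LT7. On both probes LT7 replicate 1 was above and LT7 replicate 2 below the GFP arrays, and the changes were 0.38 (SE 0.53, adjusted p = 0.730) and 0.40 (SE 0.35, adjusted p = 0.563).

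Pdgfb (NM_011057), the chain that binds both PDGF receptors, was at background level on all 6 arrays. For GFP, LT7 and ST7 in turn, probe 1 averaged 3.28, 4.79 and 6.12, and probe 2 averaged 2.81, 4.63 and 3.08. The LT7 values were higher without overlap on both, by 0.65 (adjusted p = 0.112, limma) and 0.82 (adjusted p = 0.102). The 6 endothelial marker genes, none of them above background on these 6 arrays, had a median change of 0.77 in LT7, so values of this size occurred at the level of background.

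The receptors carry the PDGF signal into the cell. Pdgfrb (NM_008809) read 10870 and 8519 in GFP and 14885 and 8874 in LT7, with overlap and a change of 0.35 (SE 0.27, adjusted p = 0.503, limma). Pdgfra (NM_011058) read 5099 and 3637 in GFP and 8270 and 5389 in LT7 on probe 1, higher without overlap, a change of 0.73 (SE 0.26, adjusted p = 0.146) or 1.66-fold. On probe 2 it read 135 and 93.9 in GFP and 61.6 and 87.1 in LT7, lower without overlap, a change of -0.52 (SE 0.28, adjusted p = 0.327). The 2 probes of the same receptor thus moved in opposite directions, and neither change passed the test. Before scaling, 7 of the 18 probes were lower in LT7 without overlap, as were 20.8% of all probes, and 4 were higher, as were 33.1% of all probes.

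**Figure D2:**
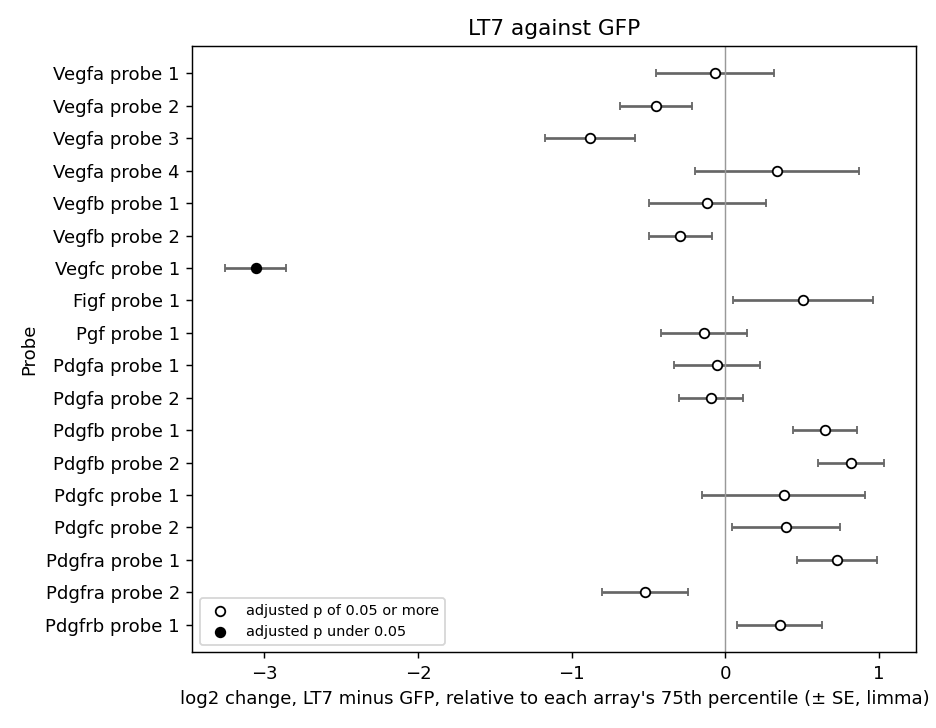
Log2 change of each of the 18 probes in LT7 relative to GFP (horizontal axis, after the percentile shift), with bars of ± 1 SE from limma (n = 2 per group). The Vegfc probe at -3.06 is the 1 filled point (adjusted p under 0.05), and the 2 Pdgfra probes lie on opposite sides of 0.

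The comparison of ST7 with GFP asks the same of the small-cell line. Of the 15 member probes detected on both GFP arrays, 10 were detected on neither ST7 array, where this held for 53.0% of all such probes. By signal before scaling, 15 of the 18 probes were lower in ST7 without overlap, as were 51.2% of all probes, and 2 were higher, as were 23.7%. The percentile shift raised ST7 values, since the 75th percentile there lay near background, and the median log2 change of all probes was 3.72 after it and -0.68 without scaling. That of the member probes was -2.43 after the shift and -6.83 without scaling. By limma 10 member probes were called lower and 5 higher after the shift, where 19.8% of all probes were called lower, 70.7% higher and 90.6% in either direction. Without scaling limma called 14 lower and 1 higher, where 41.7% of all probes were called lower and 4.28% higher. The fold rule took the same numbers as limma, 10 lower and 5 higher, where it took 90.0% of all probes, 19.1% as lower and 70.9% as higher.

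Neither PDGF receptor was detected on the ST7 arrays. Pdgfrb fell from the 10870 and 8519 of GFP to 2.88 and 3.17, and neither ST7 array was well above background. The log2 change was -7.24 (SE 0.27, adjusted p = 1.68e-05, limma), at least 31.0-fold lower after the shift and at least 654-fold lower without scaling. Pdgfra probe 1 fell to 2.93 and 3.39, a change of -6.02 (SE 0.26, adjusted p = 1.68e-05), at least 13.9-fold after the shift and 292-fold without scaling. Pdgfra probe 2 read 3.19 and 3.78 and was also not well above background in ST7. Its change after the shift, -0.62 (SE 0.28, adjusted p = 0.0838), did not pass the test, and without scaling it was at least 7.64-fold lower.

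Among the PDGF ligands, Pdgfa and Pdgfc fell in ST7. Pdgfa probe 1 read 54.2 and 37.2, still well above background, a change of -2.74 (SE 0.28, adjusted p = 0.000266, limma) or 6.69-fold, and 141-fold without scaling. Its probe 2 read 2.86 and 3.12, not well above background, at least 2.04-fold lower (a change of -3.33, adjusted p = 3.71e-05). Pdgfc read 8.49 and 3.30 on probe 1 and 2.86 and 3.33 on probe 2, at least 5.22-fold and 4.45-fold lower. The 2 Pdgfb probes were called higher after the shift, by 5.31 and 4.52, although they were not well above background in either group and changed by 0.91 and 0.13 without scaling.

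Vegfb and Figf fell in ST7 as well. Vegfb probe 1 went to 59.8 and 30.5, a change of -3.25 (SE 0.38, adjusted p = 0.000481, limma) or 9.49-fold, and 200-fold without scaling, with both ST7 arrays well above background. Vegfb probe 2 went to 11.2 and 9.86, not well above background and at least 4.65-fold lower. Figf went from 3125 and 2674 to 2.83 and 7.44, a change of -4.90 (SE 0.46, adjusted p = 0.000186), at least 9.31-fold. For Vegfc the ST7 values of 2.85 and 3.16 were not well above background. Its change after the shift was -0.49 (SE 0.20, adjusted p = 0.0591), and without scaling it was at least 6.04-fold lower.

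Vegfa and Pgf were the members whose direction in ST7 turned on the scaling or the probe. With another background correction (normexp) the direction also turned for Vegfc (1.00) and Pdgfra probe 2 (0.94). Vegfa probe 1 read 67.1 and 41.0 in ST7, which after the shift was a change of -0.06 (SE 0.39, adjusted p = 0.897, limma) and without scaling 21.9-fold lower. Probe 2 read 14.1 and 11.5, not well above background, and fell by at least 3.84-fold (a change of -2.16, adjusted p = 0.000366). Probe 3 read 44.5 and 43.3 and was called higher after the shift, by 1.68 (SE 0.29, adjusted p = 0.00268) or 3.20-fold, but was 6.59-fold lower without scaling. Probe 4 read 3.05 and 3.60, not well above background, and was called higher after the shift by 2.41 although its signal was lower than in GFP. Pgf stood out among the members because its signal hardly moved. It read 65.0 and 57.1 in ST7, inside the range of its GFP and LT7 values, and was well above background on all 6 arrays. After the shift it was called higher by 4.14 (SE 0.28, adjusted p = 5.06e-05), 17.6-fold, and without scaling it changed by -0.26, with signals that overlapped those of GFP.

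**Figure D3:**
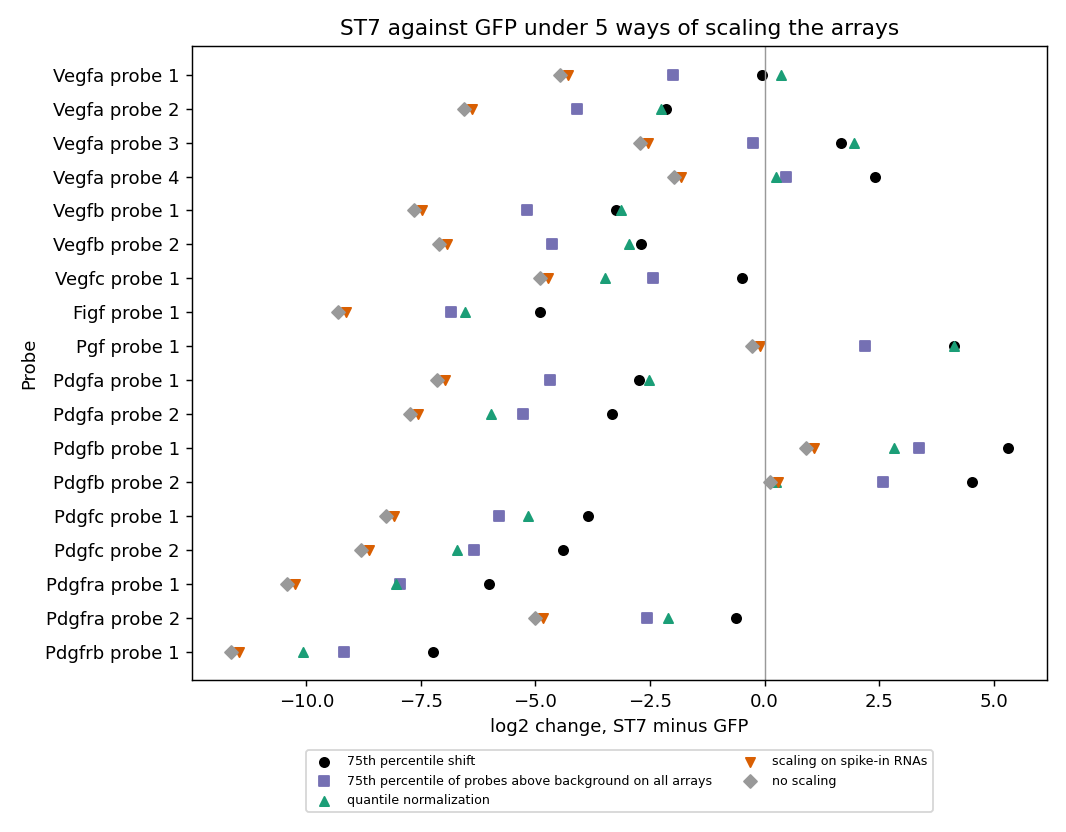
Log2 change of each of the 18 probes in ST7 relative to GFP (horizontal axis) under 5 ways of scaling the arrays, 1 symbol each. The Pdgfrb change lies below -7 under all 5, whereas Pgf goes from 4.14 after the percentile shift to -0.26 without scaling.

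The 10 probes called lower in ST7 (Vegfa probe 2, both Vegfb probes, Figf, both Pdgfa probes, both Pdgfc probes, Pdgfra probe 1 and Pdgfrb) were called lower under all 15 alternatives in processing. Against LT7, limma called 10 of the 18 probes lower and 6 higher in ST7 after the shift, where 19.7% of all probes were called lower, 71.0% higher and 90.7% in either direction. Of 14 member probes detected on both LT7 arrays, 9 were detected on neither ST7 array, against 53.1% of all such probes. Before scaling 16 of 18 were lower without overlap, as were 71.8% of all probes. Pdgfrb changed by -7.59 (adjusted p = 2.77e-05, limma) and Pdgfra probe 1 by -6.75 (adjusted p = 2.98e-05) relative to LT7. Vegfc was called higher in ST7 than in LT7 by 2.57, but was not well above background in either line. The 5 probes retained in ST7 (Vegfa 1 and 3, Vegfb 1, Pgf and Pdgfa 1) had a median GC content of 53.3% and the other 13 of 45%. Among all probes well above background in GFP the medians were 45% for those retained on both ST7 arrays and 41.7% for those retained on neither.

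Cell type markers also changed in ST7, in directions that differed between the lists. After the shift limma called 1 of 9 fibroblast markers higher and 8 lower. Of the 7 pericyte and smooth muscle markers it called 6 higher and 1 lower. It called 6 of 7 epithelial and 6 of 6 endothelial markers higher, where 70.7% of all probes were called higher and 19.8% lower. All 9 fibroblast markers were well above background on every GFP and LT7 array and 4 of 9 on the ST7 arrays. The other 5 were detected on neither ST7 array, as were 53.0% of all probes detected on both GFP arrays. The summed signal of the 9 markers lay between 328530 and 381123 on the GFP and LT7 arrays. It was 15058 and 16598 on the ST7 arrays. The sum in ST7 was nearly all vimentin (Vim), which read 14612 and 16192 there against 58774 and 57620 in GFP. After the shift Vim was called higher in ST7 by 2.48, and without scaling it changed by -1.92. Col1a1, Col1a2 and S100a4 were each saturated on 4 arrays and were the other markers detected on both ST7 arrays, with signals there between 35.7 and 295. Col3a1, Fn1, Thy1, Postn and Lum were not well above background in ST7. The summed signal of the 7 epithelial markers was 112 to 191 in GFP, 133 to 173 in LT7, and 2212 and 2005 in ST7, with Epcam, Krt18, Cldn3 and Dsp detected on both ST7 arrays. Most of the ST7 sum was Krt18, at 1881 and 1755, while Epcam read 86.7 and 94.0 and Dsp 178 and 104. The signals of the keratins Krt8 and Krt19 were not higher in ST7, where Krt8 read 15.3 and 5.82 (123 and 62.2 in GFP) and Krt19 3.17 and 3.72. Krt18 read 6.64 and 4.64 in GFP and 20.0 and 25.0 in LT7, and Krt19 11.1 and 3.14 in GFP and 13.0 and 25.9 in LT7. Each was detected on 1 LT7 array and no GFP array. The fold rule took both as higher in LT7, where limma gave changes of 2.11 (adjusted p = 0.0873) and 1.73 (adjusted p = 0.150). Krt8 was detected on both GFP and both LT7 arrays, and Cldn3 on both GFP arrays and 1 LT7 array. Cdh1, the defining epithelial cadherin, was detected on none of the 6 arrays. Of the pericyte and smooth muscle markers, Cspg4 and Acta2 were well above background on all 6 arrays, with a summed signal for the 7 genes of 11534 to 15782 in GFP and LT7 and 3733 and 4630 in ST7. Nearly all of this sum was Acta2, at 10330 and 10567 in GFP and 3677 and 4570 in ST7. After the shift Acta2 was called higher in ST7 by 3.05 (adjusted p = 0.000103, limma), and without scaling it changed by -1.35. Rgs5 read 45.4 and 33.0 in GFP, 77.3 and 76.4 in LT7 (a change of 1.09, adjusted p = 0.102, limma) and was not well above background in ST7. No array showed any of the 6 endothelial markers above background. The part of these marker changes in the growth factor and receptor values was not tested.

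The other ligands and receptors of the families comprised 7 genes, each read on its brightest probe. None passed the test in LT7, while in ST7 4 were called higher and 1 lower after the shift. Of all probes, 70.7% were called higher and 19.8% lower. The VEGF receptors Kdr and Flt4, found in blood and lymphatic endothelium, and the ligand Pdgfd stayed at background level on all 6 arrays, and these 3 were among the 4 called higher in ST7. Flt1, which binds VEGF-A, VEGF-B and PlGF, read 185 and 142 in GFP, against 103 and 80.6 in LT7 and only 6.71 and 8.86 in ST7. It was lower in LT7 without overlap, a change of -0.73 (SE 0.23, adjusted p = 0.107, limma). The other Flt1 probe averaged 21.1 in GFP and 6.85 in LT7, a change of -1.52 (adjusted p = 0.102). Both GFP arrays and neither LT7 array were well above background. The lowest signal that counted as detected was 13.5 on each GFP array, but 20.0 and 22.3 on the LT7 arrays. Detection alone therefore cannot show a difference at this level. The coreceptor Nrp2 read 13247 and 13907 in GFP, 6260 and 7647 in LT7, with 677 and 697 for ST7, the change in LT7 being -0.87 (SE 0.24, adjusted p = 0.102). The groups did not overlap for this Nrp2 probe either, and in ST7 its change after the shift was 0.09. The dimmer Nrp2 probes changed in LT7 by -0.52 (adjusted p = 0.573) and 0.02 (adjusted p = 0.980).
The coreceptor Nrp1 read 172 and 156 in GFP, 103 and 137 in LT7, with 45.5 and 50.1 for ST7. After the shift it was called higher in ST7 by 2.62, while its other probe was called lower, a change of -3.06. Without scaling both were lower, with changes of -1.78 and -7.46. Pdgfrl, a PDGF receptor-like protein, read 1781 and 1549 in GFP, 1406 and 1669 in LT7, with 6.49 and 4.53 for ST7. It fell in ST7, a change of -3.86 (SE 0.28, adjusted p = 7.03e-05, limma), at least 5.35-fold.

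Ligand activation and matrix release were followed through 6 proteases and cofactors. No gene of this list passed the test in LT7. In ST7 2 were called higher and 3 lower after the shift, against 70.7% and 19.8% of all probes. Plat, the tissue plasminogen activator that cleaves PDGF-C, read 1868 and 1692 in GFP and 4485 and 3194 in LT7. It was higher in LT7 without overlap, by 1.19 (SE 0.22, adjusted p = 0.102, limma), and its other probe by 0.89 (adjusted p = 0.102). Mmp2, a gelatinase, read 11277 and 8668 in GFP, 5977 and 5506 in LT7, with 2.91 and 3.22 for ST7, with changes of -0.69 in LT7 (adjusted p = 0.102) and -7.26 in ST7 (adjusted p = 1.68e-05), at least 31.8-fold. Furin, a convertase that processes VEGF-C and PDGF precursors, read 4595 and 4312 in GFP and 1144 and 1115 in ST7. It was called higher in ST7 after the shift by 2.42 and was lower without scaling, a change of -1.98.

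Of the 8 hypoxia regulators of Vegfa none passed the test in LT7. In ST7 3 were called higher and 5 lower after the shift, against 70.7% and 19.8% of all probes. Without scaling 0 of the 8 had a higher signal in ST7 than in GFP. Hif1a, the oxygen-regulated subunit of the transcription factor HIF-1, read 1368 and 1326 in GFP, 1815 and 1133 in LT7, with 2.83 and 3.12 for ST7. It fell in ST7, a change of -4.42 (SE 0.27, adjusted p = 3.26e-05, limma), at least 4.34-fold. Vhl, the ligase subunit that targets HIF proteins for degradation, read 2916 and 2432 in GFP, 3532 and 2759 in LT7, with 3.11 and 3.63 for ST7. Its changes were 0.33 in LT7 (adjusted p = 0.403) and -5.23 in ST7 (adjusted p = 1.68e-05). The HIF prolyl hydroxylase Egln2 read 3743 and 2971 in GFP and 4150 and 3413 in LT7, a change of 0.27 (adjusted p = 0.465).

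Signal relay from the receptors was represented by 19 genes, of which 18 were on the array and well above background on all GFP and LT7 arrays. None passed the test in LT7. On neither ST7 array were 9 of the 18 well above background, against 53.0% of all probes detected on both GFP arrays. In ST7 limma called 4 higher and 9 lower after the shift, against 70.7% and 19.8% of all probes. Without scaling 2 of the 18 had a higher signal in ST7 than in GFP. The adaptor Nck2 read 258 and 234 in GFP and 563 and 383 in LT7, higher without overlap by 1.02 (SE 0.24, adjusted p = 0.102, limma). Pik3r1, a regulatory subunit of PI3-kinase, read 730 and 736 in GFP and 377 and 436 in LT7, a change of -0.76 (SE 0.26, adjusted p = 0.140). Its other probes changed by -0.13, -1.05 and -0.64 (adjusted p = 0.942, 0.397 and 0.180). In ST7 the phosphatase Ptpn11 went from 22405 and 23021 to 2.80 and 3.16, a change of -8.50 (adjusted p = 1.68e-05), at least 73.1-fold, and its other 2 probes were also called lower. The kinase Akt1 went from 19284 and 17449 to 3.82 and 3.25 on its brightest probe, a change of -7.95 (adjusted p = 1.68e-05), while its other probe was called higher by 2.67. The mean signal of that probe was 133 in GFP and 40.3 in ST7, a change of -1.73 without scaling.

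The early response genes, 13 in number, are switched on soon after growth factor stimulation in fibroblasts. No gene passed the test in LT7, where the median change was -0.43. That median was 0.17 for all probes and -0.02 for probes well above background on both arrays of any group. In ST7 3 genes were called higher and 9 lower after the shift, against 70.7% and 19.8% of all probes. Without scaling 0 of the 13 had a higher signal in ST7 than in GFP. Spry2, a feedback inhibitor of receptor tyrosine kinase signalling, read 545 and 561 in GFP and 1217 and 1082 in LT7. Its change was 1.15 (SE 0.22, adjusted p = 0.102, limma), but its other probe changed by -0.97 (adjusted p = 0.424). Junb read 26291 and 23456 in GFP and 8756 and 16237 in LT7, lower without overlap, a change of -0.96 (SE 0.36, adjusted p = 0.166), and its other probe by -0.79. In ST7 Ier2 went from 12992 and 11426 to 2.83 and 3.13, a change of -7.60 (adjusted p = 1.68e-05), whereas its dimmest probe was called higher by 4.35 after the shift, with mean signals of 81.8 in GFP and 78.9 in ST7 and a change of -0.05 without scaling. Egr1 went from 13982 and 12222 to 6.25 and 3.13, a change of -7.13 (SE 0.53, adjusted p = 7.38e-05).

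**Figure D4:**
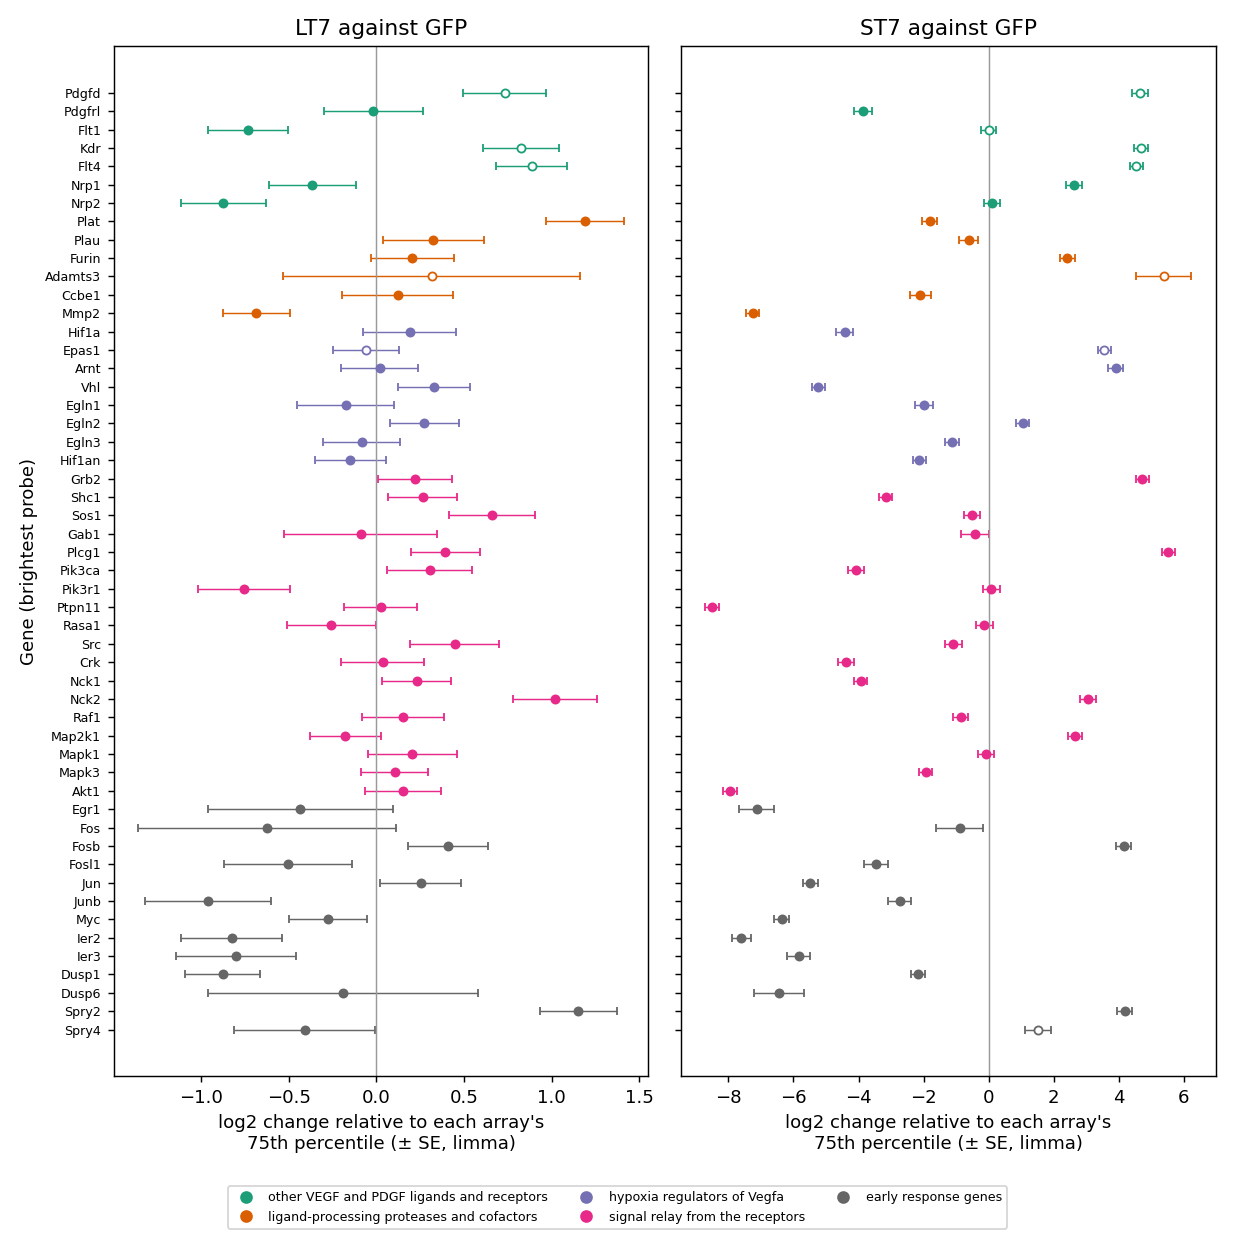
Log2 change after the percentile shift (horizontal axes, bars ± 1 SE from limma, n = 2 per group) of the brightest probe of each gene in the 5 pathway lists, LT7 against GFP on the left and ST7 against GFP on the right, on different scales. Open points are probes that were not detected on both arrays of whichever group was higher. LT7 changes lie between -0.96 and 1.19 and none passed the test, while ST7 changes run from -8.50 to 5.53.

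The genes whose pattern over the 6 arrays was most like that of a member were found by Euclidean distance between log2 values, each set relative to its GFP mean, among the brightest probes of 11136 genes well above background on all GFP and LT7 arrays. Nearest to the brightest Vegfa probe were Usp28 (distance 0.34), Spsb1 (0.36) and Rnf141 (0.43), where the median distance was 4.56. Nearest to Pdgfra were Irf1 (0.22), Pgcp (0.39) and Micall1 (0.40), with a median distance of 6.77. Nearest to Pdgfrb were Evc2 (0.31), Mcfd2 (0.32) and Fkbp9 (0.34), with a median of 8.43. The genes nearest to the receptors were, like them, well above background on neither ST7 array, so their likeness over these arrays is that of genes of similar change in LT7 whose ST7 value is set by the background level and the GFP signal.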

How the data were processed

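Total RNA was labelled with Cy3 and hybridised to 1-colour Agilent 8x60K mouse arrays. The deposited intensity values are the processed signals of Agilent Feature Extraction 10.5.1.1, background-subtracted and detrended. The deposited value table is the authors' log2 signal after a GeneSpring percentile shift. Its column medians were -3.90 and -4.06 (GFP), -4.24 and -4.08 (LT7) and -2.30 and -2.20 (ST7), and at least 99.98% of its values lay within 0.05 of the values used here, so its scale, centring and direction are known. The flags well above background, saturated and outlier are other columns the authors deposited.

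Outlier spots and control spots were left out, spots of a probe averaged, log2 taken and each array's 75th percentile subtracted. No member spot was saturated. The 6 arrays were fitted together with limma 3.58.1 (R 4.3.3), Benjamini-Hochberg over all probes, threshold 0.05, after a test on simulated data. Scan 2 holds LT7 replicate 1 alone. All member probes are named. All 7 other ligands and receptors are named, and of the other lists the 2 genes with the largest absolute change in each comparison whose brightest probe was detected on both arrays of whichever group was higher. The brightest probe has the highest mean log2 signal over the 6 arrays. The members and lists were chosen with earlier results of these data known. The cell type markers were named after their values were seen. RefSeq symbols were matched by accession for 10 of 10 genes. No genome of the build of the array design (mm9) was used here, so positions are not given. The number of arrays limits the precision. Alternatives are in the closing section. The sequence of Vegfa probe 3 is not reported here.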

Additional observations from a re-analysis of the deposited data

How the results depend on the processing

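The log2 change of Vegfc in LT7 kept its sign under all 15 alternatives (from -5.22 to -1.02), and its adjusted p ranged from 0.0101 to 0.501 (limma). The count of member probes called in LT7, 1 in the main analysis, was 0 with quantile normalization, with the 4 spike-in RNAs as the scale and with the replicate block, where Vegfc had an adjusted p of 0.181, 0.501 and 0.104. It ranged from 0 to 1 with 1 array left out. The fold rule took 1 to 2 member probes with 1 array left out, the other being Vegfa probe 3 without LT7 replicate 2. Over all probes, many of them at background, same-numbered arrays did not deviate together (correlations 0.08, 0.04 and -0.02). With 2 arrays per group this cannot tell whether the samples were paired, and the main fit used no pairing. The replicate block moved the calls over all probes in LT7 from 108 to 0 (16289 at an unadjusted p under 0.05) and changed no other count of member calls. With normexp background correction 1 protease or cofactor gene and 2 early response genes were called in LT7, against 0 in each.

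In LT7, scaling on the spike-in RNAs moved the median of all probes to -2.00 and turned the sign of Vegfa probe 4 (-1.83), Figf (-1.66), the Pdgfb probes (-1.51 and -1.35), the Pdgfc probes (-1.78 and -1.77), Pdgfra probe 1 (-1.44) and Pdgfrb (-1.81). With 1 array left out the change in LT7 ran from -0.43 to 0.30 for Vegfa probe 1, from -0.29 to 0.96 for Vegfa probe 4, from -0.42 to 0.15 for Pgf, from -0.18 to 0.072 and -0.22 to 0.033 for the Pdgfa probes, and from -0.015 to 0.81 for Pdgfc probe 2.

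In ST7 limma called 15 member probes (5 higher and 10 lower), and 1 higher and 14 lower without scaling, 3 and 13 with the percentile of probes detected on every array, 3 and 12 with quantile normalization, 0 and 12 with spike-ins, 7 and 11 with normexp, and 2 and 10 with dim probes left out. Of all probes, 4.28% were called higher and 41.7% lower, 55.3% and 27.7%, 33% and 24.6%, 0.431% and 22.9%, 76.8% and 17.3%, and 47.2% and 36.5% in these settings in turn, against 70.7% and 19.8%. The median of all probes in these was -0.68, 1.78, 0.37, -0.51, 2.23 and 0.71, against 3.72. The sign turned for Vegfa probe 1 with quantile normalization (0.37) and with 1 array left out (-0.45 to 0.34). It turned for Vegfa probe 3 without scaling (-2.72), with the percentile of detected probes (-0.26) and with spike-ins (-2.55), for Vegfa probe 4 (-1.99 without scaling, -1.81 with spike-ins) and for Pgf (-0.26 and -0.092 likewise). With normexp it turned for Vegfc (1.00) and Pdgfra probe 2 (0.94). Of the other ligands and receptors 5 were called in ST7, against 1 with spike-ins and 2 with dim probes left out, where fewer probes are tested. Of the hypoxia regulators 8 were called, against 5 with spike-ins. Against LT7, 16 member probes were called in ST7, and 8 with spike-ins. Where no construction is named the cause was not tested. Vegfa probe 4 and both Pdgfb probes could not be tested with dim probes left out, and where 1 array of a group was left out, the remaining one was taken to vary as the other groups do. On the ST7 arrays 13 of 18 member probes have only an upper bound.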
